A study of Mus musculus with 192 samples.

Results

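Hindbrains of mice homozygous for a human amylin analog transgene (HOM) were compared with hindbrains of nontransgenic mice (NON). The mice were at the first time point of the study, T1, a stage that the study named prediabetic for the transgenic mice. The pools were defined by their labels: region hindbrain, time point T1, genotype HOM or NON, and a known collection time. They were 9 pools of RNA, 4 HOM and 5 NON, of 192 pools in the whole series. The 9 pools held RNA of 17 mice aged 99 to 101 days, 8 of them HOM and 9 NON.

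All mice were males of the L44 line on the FVB/n background. The transgene, tripro-hA, encodes a form of human amylin that does not make amyloid, the sequence of the drug pramlintide. It is driven by the rat insulin 2 promoter. The paper could not tell whether changes of amylin mRNA in the brain came from the mouse gene or from the transgene. NON mice came from the same crosses of hemizygous (HEM) parents, littermates where they could be had. Tissue was taken either in the morning (AM, 10 am to 12 pm) or in the afternoon (PM, 1 to 3 pm). The HOM group held pools 3/4 and 6/7 in AM and pools 1/5 and 8/9 in PM, and the NON group held pools 2/7 and 8/9 in AM and pools 1/3, 4/5 and 6 in PM. Pools are named by the mice they combined, so the 8/9 of HOM and the 8/9 of NON are different animals, and NON pool 6 is a single mouse. The dissected hindbrain included the cerebellum.

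Barcoded probes were counted on the nCounter platform, without amplification, for 43 target genes, 3 reference genes and a set of control probes. The total count over the target genes ran from 113662 in NON pool 1/3 to 229423 in HOM pool 8/9. A normalised count here is a raw count divided by the geometric mean of the reference genes in its pool and scaled up by 5114, the 9-pool average of these means. A pool's background, 2 SD above the mean of its negative control probes, was 3.01 counts in NON pool 1/3 and 13.2 to 24.6 in the others. All 9 pools were above it in 39 genes. The exceptions were Ins1, Ins2, Iapp and Socs3, so that for these genes a low value only says that the count was near background at this depth. NON pool 2/7 stood apart from the other pools in several genes of low count, such as Ins1, Iapp and Agrp, and a number of the values below are also given without it.

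Amylin is a hormone released with insulin, and it lowers food intake through neurons of the hindbrain that lie outside the blood-brain barrier. Its receptors are pairs of the calcitonin receptor with a receptor activity modifying protein (Ramp1, Ramp2 or Ramp3). c-Fos is an immediate early gene whose mRNA rises for a short while in neurons that have been active. Pomc and Cart encode peptides that lower food intake, and Npy and Agrp encode peptides that raise it.

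With AM and PM together and collection time as a covariate, 0 of the 43 genes differed between HOM and NON at an adjusted p under 0.05 (0% called). The test was edgeR's quasi-likelihood F test, adjusted over the 43 genes by Benjamini-Hochberg, in which the lowest adjusted p was 0.193 and 6 genes had an unadjusted p under 0.05. DESeq2, limma and edgeR's likelihood-ratio test also called 0 genes, as did edgeR without NON pool 2/7. With positive control probes as the scale, edgeR called c-Fos (adjusted p = 0.0373), and without NON pool 8/9 it called Pik3ca (adjusted p = 0.0274). Of the 43 estimates, 19 were above 0, and the median log2 fold-change was -0.03. Without NON pool 2/7, 28 were above 0 and the median was 0.03. The genes with an unadjusted p under 0.05 were Ramp2, Arrb1 and Adrbk1, which were higher in HOM, and c-Fos, Pomc and Pik3ca, which were lower. Within PM, c-Fos was the 1 gene called, at a log2 fold-change of -1.65.

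**Figure D1:**
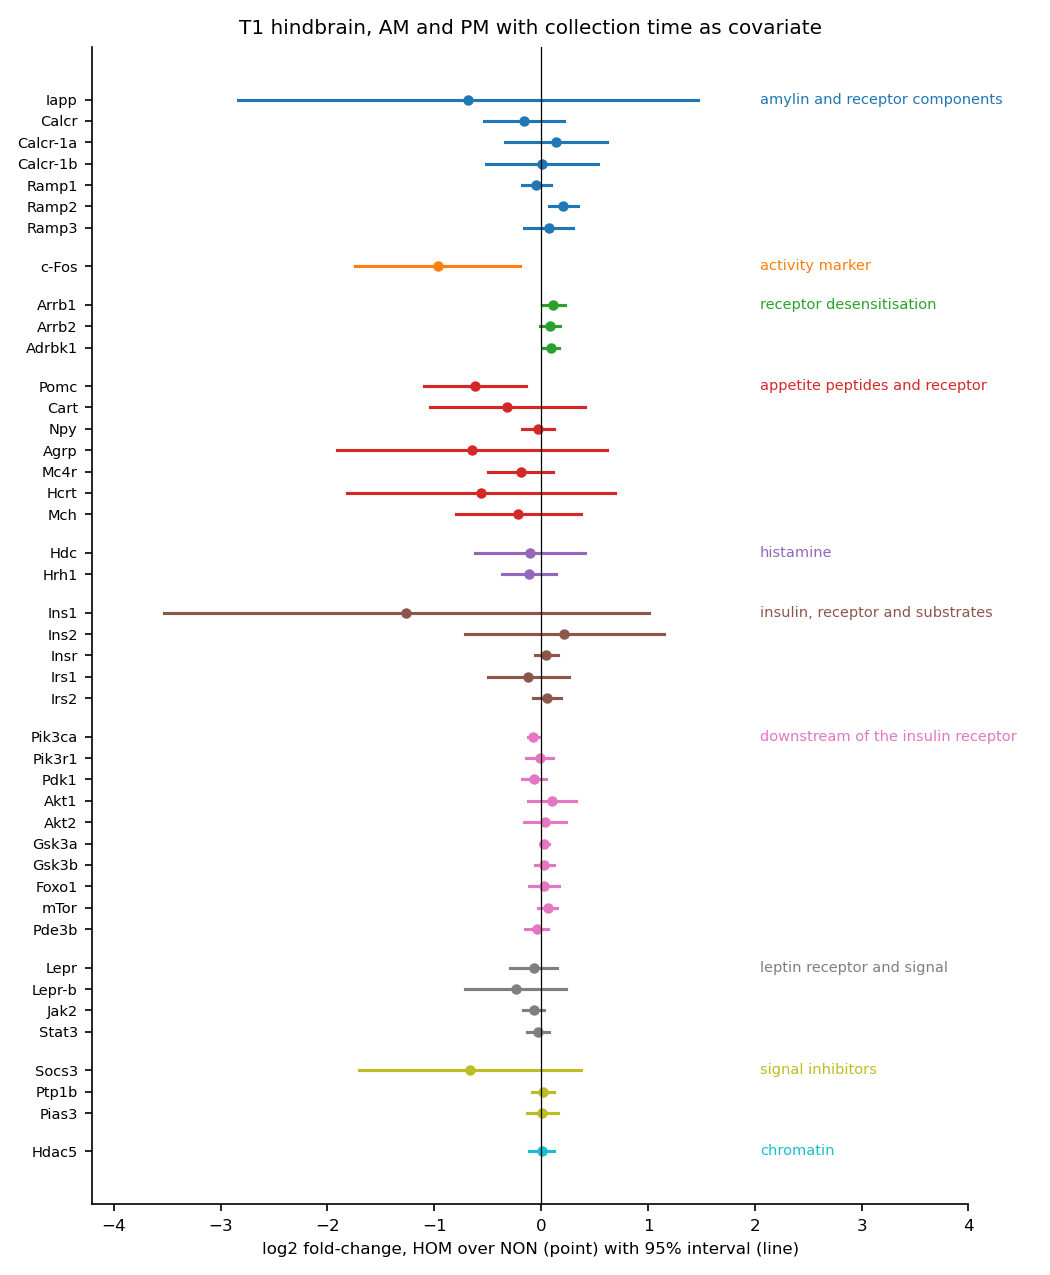
The log2 fold-change of HOM over NON (points) with its 95% interval (lines) for each of the 43 genes, grouped by function, from the 9 T1 hindbrain pools with collection time as covariate. The intervals of Ins1, Iapp, Hcrt and Agrp are the widest, while genes downstream of the insulin receptor, Pdk1 drawn with them, lie between -0.07 and 0.10.

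The promoters of c-Fos and Pomc, which had the largest log2 fold-changes among the 4 genes with an unadjusted p under 0.05 within PM, are shown as the 250 bases before the transcription start, from RefSeq on GRCm38.p6. They lie on the plus strand at chr12:85473640-85473889 and chr12:3954695-3954944. Capitals mark TGACG, the core of the cAMP response element, searched on both strands, and TATAA, likewise on both strands. These motifs do not overlap in these windows.
c-Fos: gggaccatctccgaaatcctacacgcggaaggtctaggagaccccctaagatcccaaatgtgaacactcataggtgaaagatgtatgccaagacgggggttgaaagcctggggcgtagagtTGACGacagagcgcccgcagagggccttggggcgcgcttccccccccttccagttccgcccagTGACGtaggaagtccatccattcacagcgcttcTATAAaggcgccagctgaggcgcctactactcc
Pomc: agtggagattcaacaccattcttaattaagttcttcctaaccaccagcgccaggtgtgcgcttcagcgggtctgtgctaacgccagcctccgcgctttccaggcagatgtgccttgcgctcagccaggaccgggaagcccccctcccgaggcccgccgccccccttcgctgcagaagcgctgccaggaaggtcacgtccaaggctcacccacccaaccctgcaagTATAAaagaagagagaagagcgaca
The c-Fos window holds TGACG at 129 and at 66 bases before the start and TATAA at 33 bases before it. The Pomc window holds TATAA at 25 bases before the start and has 0 matches to TGACG. Of 32851 RefSeq promoter windows of the same length, 17.8% hold TGACG and 22.8% hold TATAA. These matches are a description of the letters, and the counts do not test the sites.

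In the PM hindbrain, c-Fos had 1855 normalised counts in HOM pool 1/5 and 1937 in HOM pool 8/9. The NON PM pools had 6836 in pool 1/3, 3603 in pool 4/5 and 7423 in pool 6. Both HOM PM pools were lower than every other pool of the 9, and the HOM and NON PM pools did not overlap. The means were 1896 ± 57.6 in HOM (SD, n = 2) and 5954 ± 2057 in NON (SD, n = 3). The log2 fold-change was -1.65 (standard error 0.30, 95% interval -2.35 to -0.96, adjusted p = 0.0273 in an edgeR model of 4 means, 1 for each genotype and collection time). With c-Fos as the 1 of 43 genes, 2.33% were called within PM, and 4 genes had an unadjusted p under 0.05.

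In AM, c-Fos had 4310 normalised counts in HOM pool 3/4 and 5327 in HOM pool 6/7. The NON AM pools had 4749 in pool 2/7 and 6233 in pool 8/9, so the AM pools overlapped. The AM log2 fold-change, which turned to 0.021 without NON pool 8/9, was -0.19 (standard error 0.31, 95% interval -0.90 to 0.53, adjusted p = 0.829 from the same edgeR fit). No other gene passed in AM either: 0 of 43 were called (0%), with 3 genes at an unadjusted p under 0.05 (Akt1 and Adrbk1 higher, Pdk1 lower).

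The PM effect of c-Fos minus its AM effect was -1.46 ± 0.42 on the log2 scale (standard error; edgeR adjusted p = 0.391). That test called 0 of 43 genes (0%), with 4 at an unadjusted p under 0.05, so a different response in PM than in AM was not established. Left out in turn, 1 of the 9 pools changed that count: without NON pool 4/5, c-Fos was called at -1.72 (edgeR adjusted p = 0.00195). Taken over AM and PM, c-Fos had a log2 fold-change of -0.97 (standard error 0.34, 95% interval -1.74 to -0.20, adjusted p = 0.193 from edgeR). An exact permutation test of the log2 normalised counts within AM and within PM, two-sided over 60 arrangements, gave p = 0.0667 for c-Fos.

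The PM call of c-Fos rested on few pools. It did not pass in limma (adjusted p = 0.123), nor in 1 edgeR model of all hindbrain pools of the 3 time points (adjusted p = 0.639), and it passed in the PM pools alone (adjusted p = 0.0388), in DESeq2 and in edgeR's likelihood-ratio test. Without NON pool 1/3 or NON pool 6 its adjusted p from edgeR was 0.105 or 0.0742. Without HOM pool 1/5, 8/9, 3/4 or 6/7 it was 0.298, 0.128, 0.0518 or 0.0536. The log2 fold-change itself lay between -1.91 and -1.46 over the 9 pools left out in turn. Where a fit left 1 pool in an arm, that pool was assumed to vary like the others.

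**Figure D2:**
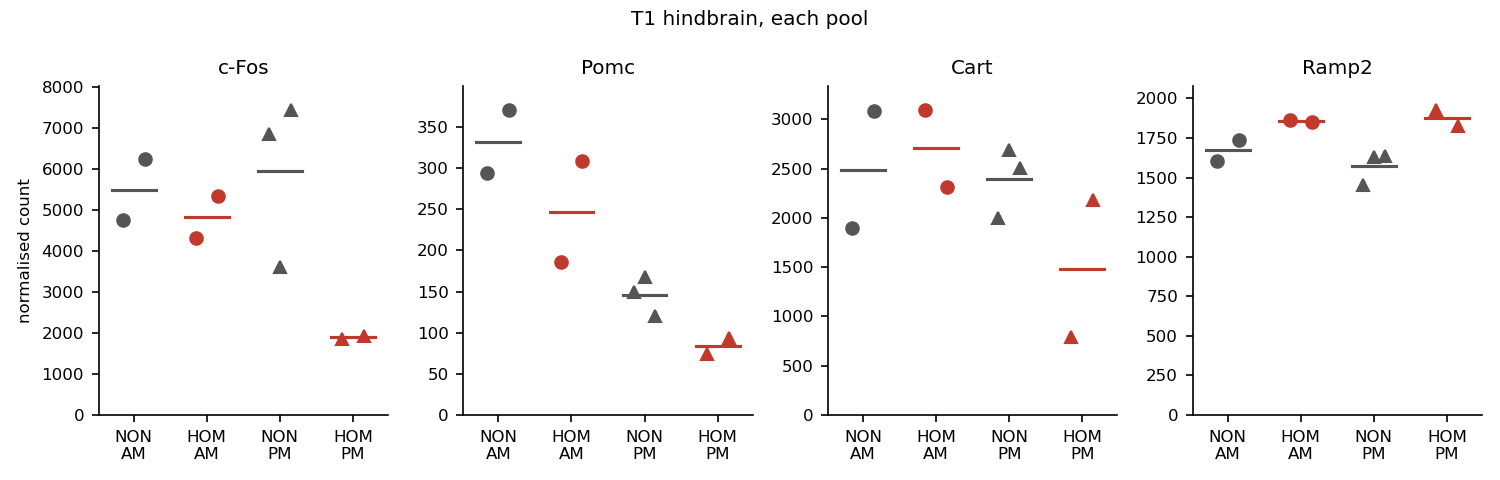
Normalised counts of c-Fos, Pomc, Cart and Ramp2 (vertical axes, starting at 0) in each T1 hindbrain pool, by genotype and collection time; points are pools, circles AM and triangles PM, and the lines are group means. The 2 HOM PM pools lie under all other pools for c-Fos and Pomc, and the 4 HOM pools lie above the 5 NON pools for Ramp2.

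Among the appetite genes, all 7 log2 fold-changes were under 0, with a median of -0.32 beside -0.03 over all 43 genes, and 0 of the 7 were called. Without NON pool 2/7, 4 of the 7 were above 0 and the median was 0.0036. The 4 were Agrp at 0.10, Hcrt at 0.088, Npy at 0.0077 and Mch at 0.0036, and Pomc stood at -0.71, Cart at -0.51 and Mc4r at -0.098. Pomc, the precursor of the melanocortin peptides, had 74.3 and 93.0 normalised counts in HOM PM pools 1/5 and 8/9. The NON PM pools had 149 in pool 1/3, 168 in pool 4/5 and 121 in pool 6. In AM, HOM pools 3/4 and 6/7 had 186 and 308, and NON pools 2/7 and 8/9 had 294 and 370. Pomc was thus lower in both HOM PM pools than in any NON PM pool, while the AM pools overlapped. Its log2 fold-change was -0.62 ± 0.21 over both times (standard error; edgeR adjusted p = 0.193) and -0.80 ± 0.30 within PM (standard error; edgeR adjusted p = 0.323).

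Cart, another anorexigenic peptide, had 789 normalised counts in HOM pool 1/5, the lowest of the 9 pools. The other HOM pools had 2182 in pool 8/9, 2318 in pool 6/7 and 3092 in pool 3/4, against 1895 to 3087 in the NON pools. Its log2 fold-change of -0.32 (95% interval -1.04 to 0.41, adjusted p = 0.679 from edgeR) became 0.01 without HOM pool 1/5. Npy, which raises food intake, ranged from 3314 to 3927 in HOM pools and from 3454 to 4010 in NON pools, and its log2 fold-change was -0.03 (95% interval -0.18 to 0.12, adjusted p = 0.759 from edgeR). Agrp had a log2 fold-change of -0.65 with NON pool 2/7, where it had 244 normalised counts, against 106 or fewer in the other pools.

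Of the 7 genes for amylin and its receptor components, 4 log2 fold-changes were above 0 and 3 under it, with a median of 0.01, and 0 were called. Without NON pool 2/7, 5 were above 0 and the median was 0.08. Ramp2 was the 1 gene of the 43 whose 4 HOM pools all lay above the 5 NON pools (2.33% of genes), and 0% had all HOM pools lower. Its normalised counts were 1861 and 1850 in HOM AM pools 3/4 and 6/7, and 1925 and 1827 in HOM PM pools 1/5 and 8/9. The NON pools had 1605 in pool 2/7, 1739 in pool 8/9, 1454 in pool 1/3, 1631 in pool 4/5 and 1636 in pool 6. The difference was small, a log2 fold-change of 0.21 (standard error 0.06, 95% interval 0.07 to 0.34), and it was not called (adjusted p = 0.193 from edgeR). The exact permutation test, two-sided over the 60 arrangements, gave p = 0.0167 for Ramp2, the smallest it allows, and 0.512 after adjustment over the 43 genes.

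Calcr, the calcitonin receptor that binds amylin with the Ramp proteins, ranged from 293 to 321 in HOM pools and from 242 to 455 in NON pools. Its log2 fold-change was -0.16 (95% interval -0.54 to 0.22, adjusted p = 0.680 from edgeR), and -0.073 without NON pool 2/7. Iapp, the amylin gene, was at or under background in 4 of the 9 pools and had 194 normalised counts in NON pool 2/7, against at most 50.9 in any other. Its log2 fold-change of -0.68 (95% interval -2.84 to 1.47, adjusted p = 0.701 from edgeR) turned to 0.69 without that pool. Whether its probe also counts mRNA of the transgene is not known here.

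The proteins that switch off activated receptors, Arrb1, Arrb2 and Adrbk1, had log2 fold-changes of 0.11, 0.08 and 0.09, all 3 above 0, and 0 of 3 were called. Arrb1 encodes beta-arrestin 1 and had 12419 to 13246 normalised counts in HOM pools and 10880 to 12799 in NON pools. Adrbk1, the kinase that marks receptors for arrestin binding, had 8606 to 9643 in HOM pools and 8272 to 8685 in NON pools. Each had an unadjusted p under 0.05 and an adjusted p of 0.277 and 0.193 in edgeR's quasi-likelihood test.

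In the insulin pathway, 0 of the 5 genes for insulin, its receptor and its substrates and 0 of the 9 genes downstream of the receptor were called. Of the 9 downstream genes, 6 were above 0, and all lay between -0.07 and 0.10 on the log2 scale. Pik3ca, a catalytic subunit of phosphoinositide 3-kinase, was the lowest of them at -0.07 ± 0.02 (standard error; edgeR adjusted p = 0.193), and it was called when NON pool 8/9 was left out (adjusted p = 0.0274). Akt1, a kinase activated by insulin, had 11313 and 9631 normalised counts in HOM AM pools 3/4 and 6/7, above the 8196 and 8467 of NON AM pools 2/7 and 8/9. In PM the pools overlapped, with 8457 and 9077 in HOM pools 1/5 and 8/9 and 8173 to 9992 in NON pools. Its log2 fold-change over both times was 0.10 (95% interval -0.13 to 0.33, adjusted p = 0.679 from edgeR), and 0.050 without NON pool 2/7. The probe called Pdk1 has the transcript of pyruvate dehydrogenase kinase 1 in RefSeq, not that of the kinase that phosphorylates Akt, so it is set apart from the 9. Its log2 fold-change was -0.07.

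Irs1, an insulin receptor substrate, had a log2 fold-change of -0.12 (95% interval -0.50 to 0.26, adjusted p = 0.701 from edgeR), and 895 normalised counts in NON pool 2/7 against at most 653 elsewhere. Without that pool its log2 fold-change was 0.066. Ins1 and Ins2, the insulin genes of the mouse, were above background in 5 and 6 of the 9 pools. Ins2 ranged from 12.3 to 29.7 over the 9 pools. Ins1 ran from 3.08 to 86.9 in all pools but NON pool 2/7, where it was 348. Its log2 fold-change of -1.26 (95% interval -3.53 to 1.01, adjusted p = 0.679 from edgeR) was 0.08 without that pool.

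The leptin genes Lepr, Lepr-b, Jak2 and Stat3 were all under 0, with a median of -0.07, and 0 of 4 were called. Without NON pool 2/7, Lepr was at 0.013 and the other 3 were under 0, with a median of -0.045. Lepr-b, the long signalling form of the leptin receptor, was the lowest at -0.24 (95% interval -0.71 to 0.23, adjusted p = 0.679 from edgeR). It had 114 to 174 normalised counts in HOM pools and 128 to 261 in NON pools, the 261 in NON pool 2/7, without which its log2 fold-change was -0.040. Among the inhibitors of leptin and insulin signalling, Socs3 had a log2 fold-change of -0.66 (95% interval -1.70 to 0.37, adjusted p = 0.679 from edgeR). It had 17.8 normalised counts in HOM pool 1/5, at background, 33.0 to 63.7 in the other HOM pools and 27.7 to 142 in the NON pools. The 142 was in NON pool 2/7, without which the log2 fold-change was -0.18. The other NON AM pool, 8/9, had 33.9, under both HOM AM pools, at 63.7 and 50.1. Ptp1b and Pias3 had log2 fold-changes of 0.02 and 0.01, or 0.026 and 0.036 without NON pool 2/7. The histamine receptor Hrh1 and the histamine-forming enzyme Hdc had -0.11 each, 0.16 for Hdc and -0.044 for Hrh1 without NON pool 2/7, and Hdac5, a histone deacetylase, had 0.00 with a 95% interval of -0.11 to 0.12.

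**Figure D3:**
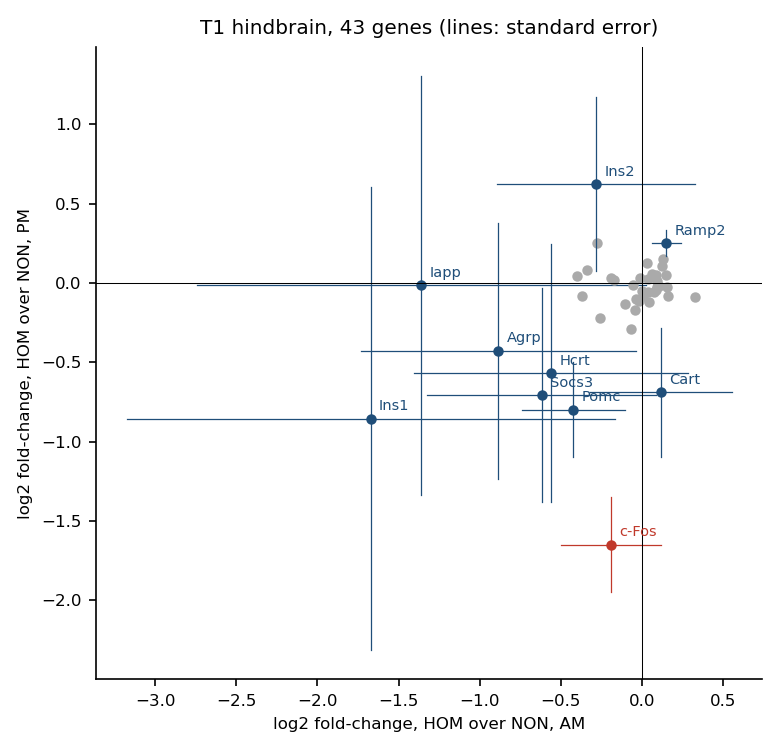
The log2 fold-change of HOM over NON in AM (horizontal axis) and in PM (vertical axis) for the 43 genes, with standard errors as lines for the labelled genes. c-Fos stands at -0.19 in AM and -1.65 in PM, and the genes with the widest errors, Ins1 and Iapp, lie far to the left in AM, where NON pool 2/7 is 1 of the 2 NON pools.

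Within AM, the pools of the genotypes did not overlap in some genes, as 25.6% of genes had both HOM pools above both NON pools and 6.98% had both below. In PM, 6.98% had both HOM pools above the 3 NON pools and 23.3% had both below. With so few pools, such separation also arises by chance, and these shares were not tested. The 10 PM genes with both HOM pools lower were c-Fos, Pomc, Pik3ca, Mc4r, Jak2, Irs1, Lepr-b, Foxo1, Ramp1 and Pde3b. Mc4r encodes a melanocortin receptor.

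With collection time and genotype in the same model, 3 of 43 genes differed between PM and AM (6.98% called, edgeR's quasi-likelihood test), all lower in PM. Pomc had a log2 fold-change of -1.36 ± 0.21 (standard error; edgeR adjusted p = 0.00541), with AM pools at 186 to 370 normalised counts and PM pools at 74.3 to 168. Hdac5 had -0.30 ± 0.05 (standard error; edgeR adjusted p = 0.0074), with 8080 to 9123 in AM and 6573 to 7543 in PM, without overlap. Mc4r had -0.54 ± 0.13 (standard error; edgeR adjusted p = 0.0417), with 514 to 769 in AM and 378 to 521 in PM. Whether AM and PM pools differed in other ways was not tested. The count of called genes ranged from 2 to 12 when each pool was left out in turn, and it was 12 without NON pool 8/9. Pomc and Hdac5 were called in each of those fits and Mc4r in only some of them. With TMM normalization Hdac5 fell to -0.19 and was not called (edgeR adjusted p = 0.0626).

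NON pool 2/7 stood apart from the other 8 pools. It had the highest normalised count of the 9 pools in 18 of 43 genes. Ins1 was 14.6 times the median of the other pools there, Iapp 10.9 times, Agrp 6.96 times, Hcrt 4.87 times and Socs3 3.98 times. NON pool 6 and HOM pool 3/4 came next for these genes, with Ins1 at 86.9 and 66.0 and Agrp at 67.5 and 106. The 4 genes taken as hypothalamic markers, Agrp, Hcrt, Mch and Hdc, were above background in every pool. Their summed normalised count was 999 in NON pool 2/7 and 343 to 561 in the others, with Hdc the most abundant. In the midbrain pool of the same 2 mice the same sum was 25363, nearly all of it Mch, at 24296. Mch was 269 in the hindbrain pool, and Agrp was 244 there and 69.9 in the midbrain pool. Hdc did not set the 2 regions apart, at 172 to 367 in the NON hindbrain pools and 222 to 272 in the NON midbrain pools. The beta cell markers Ins1, Ins2 and Iapp summed to 557 in NON pool 2/7, against 18.5 to 154 in the other 8, with 2 of the 3 above background. Ins2, a defining beta cell gene, was at 14.0 in that pool, its raw count of 11 under the background of 13.2. HEM hindbrain pools 1/2 and 5/6 of T1, outside the comparison, also had high Ins1, at 136 and 265, and Agrp, at 162 and 196. The other HEM hindbrain pools of T1 had Ins1 at 13.9 to 21.5 and Agrp at 23.5 to 38.3. No gene on the panel defines the hindbrain or the cerebellum, so the labelled tissue could not be checked with markers of its own. What part RNA of other cells had in these values was not tested. In bulk RNA, fewer cells of a type and less RNA per cell cannot be told apart.

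**Figure D4:**
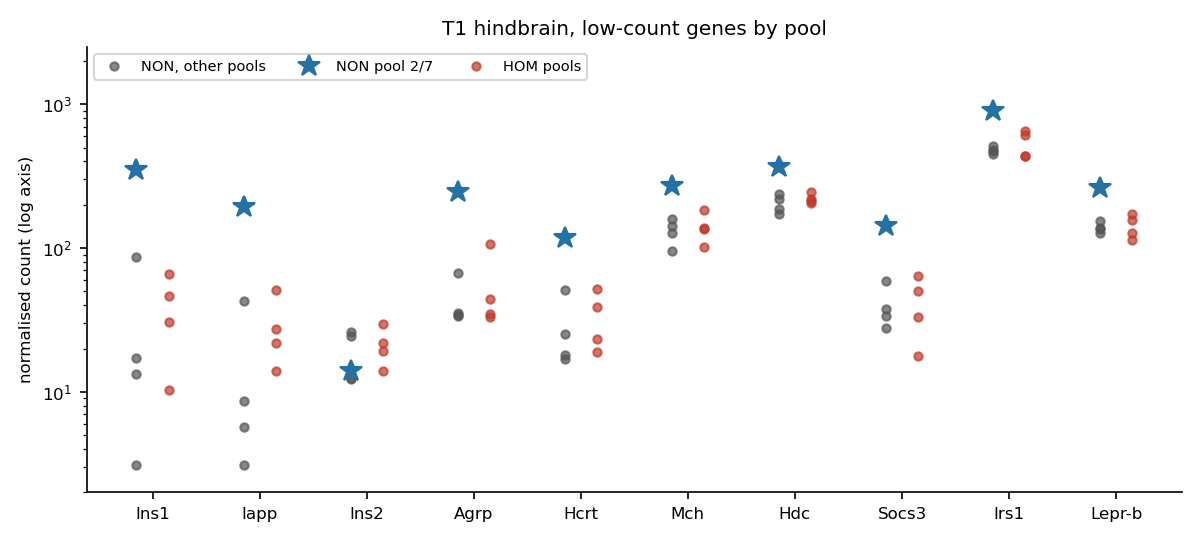
Normalised counts (log axis) of 10 genes of low or moderate abundance in the T1 hindbrain pools, with NON pool 2/7 as a star, the other NON pools in grey and HOM pools in red. The star is the highest point for 9 of the 10 genes and lies among the lower points for Ins2, at 14.0.

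The same mice were measured in the midbrain and in both cortices, which allowed the HOM effect of the hindbrain to be compared with that of each other region, with the pool as a block. None of the differences was called: 0 of 43 genes for the midbrain (0%), the left cortex (0%) and the right cortex (0%). Unadjusted p under 0.05 was reached by 1, 4 and 2 genes in the same order in edgeR's quasi-likelihood test. Without NON pool 1/3, Pik3ca was called against the left cortex, at -0.15 (edgeR adjusted p = 0.0252). For c-Fos the hindbrain effect minus the other was -0.63 for the midbrain (95% interval -1.45 to 0.18, adjusted p = 0.741 from edgeR), -0.63 for the left cortex (-1.39 to 0.13, adjusted p = 0.624) and -0.46 for the right cortex (-1.07 to 0.15, adjusted p = 0.814). For Pomc it was -0.49, -0.55 and -0.77, with adjusted p of 0.741, 0.428 and 0.813 from edgeR.

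The 2 HOM PM pools, alike in hindbrain c-Fos, were unlike in the other regions. Pool 8/9 had 2056 normalised counts in the midbrain, 2424 and 2251 in the left and right cortices, the lowest of the 9 pools in each. Pool 1/5 had 5338, 6231 and 5734, within the range of the NON pools. Pool 1/5 also had the highest Socs3 of the 9 pools in the midbrain (264) and in both cortices (234 on the left, 332 on the right), where the other pools had 39.3 to 89.2. Its hindbrain value of 17.8 was the lowest of the 9. For Socs3 the hindbrain effect minus the other was -1.07 for the midbrain (adjusted p = 0.741 from edgeR), -1.28 for the left cortex (adjusted p = 0.624) and -1.21 for the right cortex (adjusted p = 0.814). Without HOM pool 1/5 these were -0.20, -0.54 and -0.40, without NON pool 2/7 they were -0.80, -0.87 and -0.92, and without HOM pool 8/9 they were -1.64, -1.82 and -1.74. Over the 9 pools left out in turn they lay between -1.66 and -0.20, -1.88 and -0.54, and -1.76 and -0.40, and none was called. The c-Fos differences were -0.16, -0.18 and -0.070 without HOM pool 1/5 and -0.77, -0.78 and -0.67 without HOM pool 8/9, and none of them was called.

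**Figure D5:**
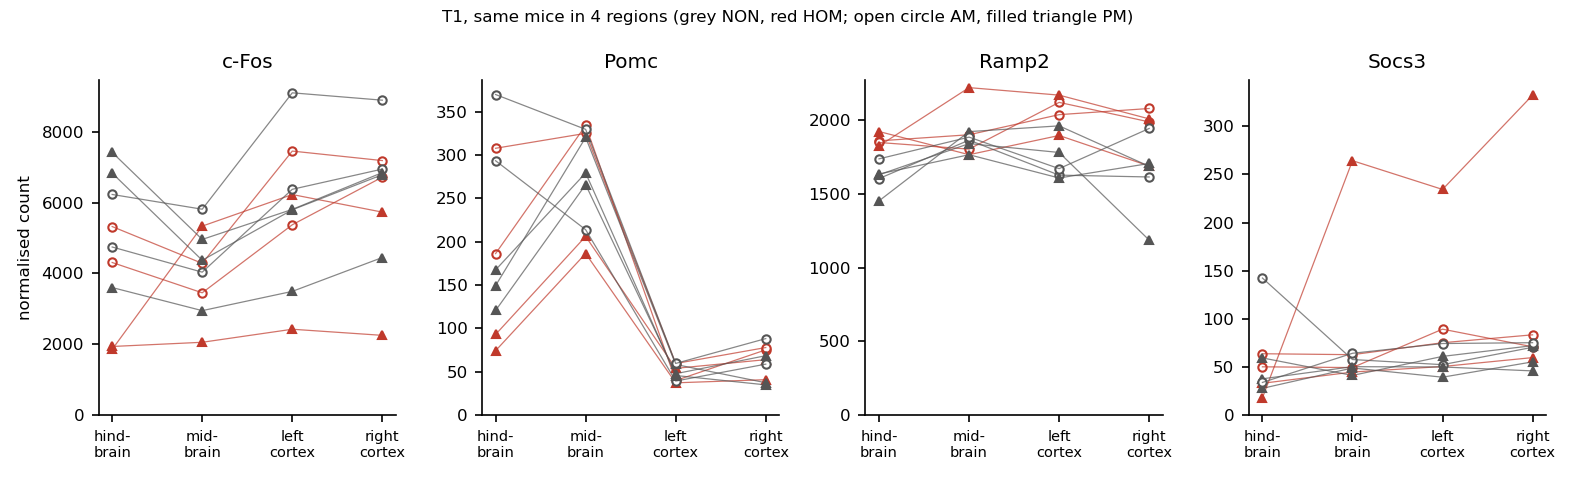
Normalised counts (vertical axes, starting at 0) of c-Fos, Pomc, Ramp2 and Socs3 in 4 brain regions (horizontal axes) of the same 9 pools of mice, joined by lines (grey NON, red HOM; open circles AM, filled triangles PM). HOM pool 8/9 is low for c-Fos in every region, while HOM pool 1/5 is low for c-Fos in the hindbrain alone and high for Socs3 in the other 3 regions.

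At the second time point, T2, which the study set at diabetes onset, 5 HOM and 7 NON hindbrain pools of other mice were available. Their mice were 100 to 246 days old in HOM and 90 to 286 days in NON, and age was not in the model. Ramp2 had 1643 to 2134 normalised counts in the HOM pools (median 2021) and 1385 to 1922 in the NON pools (median 1565), which overlapped. In a fit of T1 and T2 together its T2 log2 fold-change was 0.34 ± 0.07 (standard error; edgeR adjusted p = 0.00825), and the T1 effect minus the T2 effect was -0.13 (95% interval -0.36 to 0.10, adjusted p = 0.544 from edgeR). The T2 effect of Ramp2 was called in each of the 12 fits that left out 1 T2 pool, with an adjusted p of at most 0.0336 in edgeR. Pomc had 38.8 to 967 normalised counts in the HOM pools (median 226) and 61.1 to 399 in the NON pools (median 131). The groups overlapped, and 1 HOM pool lay under every NON pool. Pomc had the opposite sign to T1, with a log2 fold-change of 1.39 ± 0.43 at T2 (standard error; edgeR adjusted p = 0.0492). The T1 effect minus the T2 effect of Pomc was -2.00 (95% interval -3.40 to -0.60, adjusted p = 0.331 from edgeR). The T2 effect of Pomc was not called with TMM normalization (edgeR adjusted p = 0.0959), nor in 9 of the 12 fits that left out 1 T2 pool, nor in any of the 9 that left out 1 T1 pool. The difference between T1 and T2 was called for 0 of 43 genes (0%), with 2 at an unadjusted p under 0.05. At T2 itself 4 genes were called (9.3%), Ramp2, Foxo1, Pomc and Gsk3a, all higher in HOM, a naming made after their values were seen. With 1 pool of either time point left out, 1 to 3 were called. For c-Fos, the T2 log2 fold-change was -0.40 (adjusted p = 0.569 from edgeR), and the difference between T1 and T2 was -0.57 (95% interval -1.51 to 0.37, adjusted p = 0.544 from edgeR).

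Hemizygous mice of T1 were not part of the comparison, and 3 of their 5 hindbrain pools have no collection time in the labels. In the 2 HEM PM pools, 8 and 9/10, c-Fos had 2232 and 3828 normalised counts, between the HOM PM pools and the upper NON PM pools. Pomc had 60.7 and 31.4 there, and Cart had 726 and 956, all under the lowest NON PM pool. Ramp2 had 1737 and 1765, above the 3 NON PM pools and under both HOM PM pools. These pools would be compared with the same NON PM pools as HOM, so the values are given side by side only.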

How the data were processed

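RNA of the T1 hindbrain was counted with nCounter probes in pools of equal RNA from 1 or 2 mice. The authors deposited raw counts of each probe, with no normalization or background correction. Samples were grouped by their labels. The 3 reference genes' geometric mean served as library size, and HOM was compared with NON in R 4.3.3 with edgeR 4.0.16 (estimateDisp, glmQLFit and glmQLFTest, prior count 0.125, Benjamini-Hochberg adjustment over 43 genes, adjusted p under 0.05). The main model had collection time and genotype as terms, and a second had a mean for each genotype and collection time. Standard errors come from the fold-change and F statistic, and 95% intervals use the test's degrees of freedom. Pools of a group hold different mice, and which mice were littermates is not known here. The fits were tested on simulated counts with known changes.

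Members, gene lists and the named genes were chosen with earlier results of these data known. The rule named genes called, c-Fos, Pomc, Cart, Npy, Agrp, Socs3, Calcr, Iapp (amylin), Ins1 and Ins2, and in each list the gene above background in all pools with the largest change. Pik3ca and Adrbk1, and other genes named singly, were chosen after their values were seen. Alternatives used TMM, positive control probes, each reference gene left out, DESeq2 1.42.0, limma 3.58.1 on log2(normalised count + 1), the likelihood-ratio test, background subtraction, a low-count filter, other samples or covariates, and each pool left out. The T2 effect with its alternatives, region, AM and T1 against T2 fits with a pool left out, most alternatives within PM, the PM against AM alternatives and the fit without NON pools 2/7 and 1/3 were added after seeing the data. NanoStringDiff was not used here. For the region differences, pools with the same numbers and genotype come from the same mice, as the labels give, so the pool was a block. HOM and NON pools are different mice and were not paired. No 2 pools of a genotype had identical counts, and chi-square divided by its degrees of freedom was at least 13.6 over the 16 pairs. RefSeq sequences and symbols (GRCm38.p6) were matched by symbol and accession.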

Additional observations from a re-analysis of the deposited data

Results flagged for a closer look

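In 86 tests of single pools for distance from the rest of their genotype group, 43 genes in 4 HOM and in 5 NON pools, 11 values stood far from the others by Dixon's ratio, and chance gives about 1 in 20. The groups span AM and PM. Of these 11 values, 7 were in NON pool 2/7. Its normalised counts were 244 for Agrp (the next NON pool 67.5), 194 for Iapp (42.9), 348 for Ins1 (86.9), 895 for Irs1 (511), 261 for Lepr-b (155), 769 for Mc4r (521) and 142 for Socs3 (59.3). HOM pool 3/4 had 106 for Agrp, against 44.2 in the next HOM pool. HOM pool 6/7 had 1480 for Lepr (next 1322) and 4341 for Pde3b (next 4656). NON pool 8/9 had 19694 for Gsk3a, against 19432 in the next NON pool. The cause of these values was not tested.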

How the results depend on the processing

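With collection time as covariate, the count of called genes was 0 under 24 of 26 alternatives, among them adjusted p with fold limits of 0.58 and 1; it was 1 (c-Fos) with positive control probes, and 0 to 1 when each pool was left out, the 1 being Pik3ca without NON pool 8/9. Within PM it was 0 in limma and in the model of all hindbrain pools, and 0 to 1 with each pool left out. The PM fold-change of c-Fos was not called in limma (-1.58) or that model (-1.65), and ranged from -1.91 to -1.46 with each pool left out. It lost its call without HOM pool 1/5 (-1.62), 8/9 (-1.68), 3/4 or 6/7 (-1.65 each) and without NON pool 1/3 (-1.54) or 6 (-1.46). PM against AM gave 5 genes with TMM, Hdac5 not among them, and 2 to 12 with each pool left out. HOM against NON at T2 gave 2 genes with TMM and 1 to 3 with each T1 or T2 pool left out. The counts within AM, for T1 against T2 and for the midbrain and right cortex were 0 under every alternative run. The PM and AM difference and the left cortex gave 0 to 1 with each pool left out (c-Fos without NON pool 4/5, Pik3ca without NON pool 1/3). The AM change of c-Fos was 0.021 without NON pool 8/9, and the PM and AM difference of Pomc was 0.033 without HOM pool 6/7.

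Of 498 alternative values for the 20 named genes, 473 kept their direction and side of the threshold, 2 passed it and 23 changed sign, in 9 genes. Without NON pools 2/7 and 1/3, the log2 fold-changes were 0.054 for Agrp, 0.0066 for Hrh1, 0.46 for Iapp, 0.060 for Irs1 and 0.034 for Npy. Without NON pool 2/7 alone, they were 0.10 for Agrp, 0.69 for Iapp, 0.078 for Ins1, 0.066 for Irs1 and 0.0077 for Npy. Npy was 0.015 without HOM pool 8/9, and Cart was 0.0097 without HOM pool 1/5. Hdac5 was -0.018, -0.029 and -0.024 without NON pool 4/5, NON pool 8/9 and HOM pool 6/7, and Ptp1b was -0.016 without NON pool 8/9. Iapp was 0.35 in limma and 0.31 in the permutation test. Hdac5 was -0.028 with positive control probes and -0.0018 or -0.018 with a reference gene left out, and Ptp1b was -0.015 and -0.0043. No scaling moved the median of all genes by over 0.04, while leaving out NON pool 2/7 moved it from -0.03 to 0.03. The cause of these changes was not tested, apart from the fewer pools of a fit with pools left out.

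Without the replicate block on the pool, the region differences called 0 genes each. That of c-Fos was -0.73 for the midbrain, -0.73 for the left cortex and -0.56 for the right cortex, and that of Pomc was -0.45, -0.53 and -0.73. Depth limits Ins1, Ins2, Iapp and Socs3, which were at or under background in 1 to 4 pools.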

Other observations

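In the 3 HEM hindbrain pools of T1 without a collection time in the labels, c-Fos had 7641, 6546 and 6741 normalised counts in pools 1/2, 3/4 and 5/6. Pool 1/2 and pool 5/6 had Ins1 at 136 and 265, Iapp at 86.2 and 155, Agrp at 162 and 196 and Socs3 at 91.2 and 96.1, while pool 3/4 had 13.9, 11.1, 25.0 and 38.8. Ins2 was 36.5, 15.7 and 26.8 in pools 1/2, 3/4 and 5/6. At T2, Ins1 ranged from 11.2 to 21.9 in the HOM and NON hindbrain pools and Iapp from 8.79 to 23.0. HOM pool 3/4 of T1 had 66.0 for Ins1, 50.9 for Iapp and 106 for Agrp.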
